A study of Mus musculus with 9 samples.

Results

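The Hoxa cluster genes Hoxa2, Hoxa3, Hoxa5, Hoxa7, Hoxa9 and Hoxa10 and their cofactor genes Meis1 and Pbx3 were followed in cultured mouse cells. Members were taken as every probe set whose RefSeq accession or description in the deposited tables named 1 of these 8 genes. This gave 12 of the 45101 probe sets on the Affymetrix 430 2.0 array, for 7 of the 8 genes, where 9928 genes were named in all, and no probe set was found by this rule for Hoxa3. Hoxa5, Hoxa9, Hoxa10, Meis1 and Pbx3 each had 2 probe sets, and Hoxa2 and Hoxa7 each had 1.

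RNA of 3 knockout lines was compared, with 3 arrays each. EBFko cells lack EBF, a transcription factor that starts the B cell programme, and the labels call them lymphoid specified. Pax5ko cells lack Pax5, which acts after EBF, and are called B lineage specified. RAG2ko cells lack RAG2, a subunit of the antigen receptor recombinase, and are called B lineage committed. EBFko and Pax5ko cells were grown with Flt3 ligand and IL-7, each at 10 ng/ml, and RAG2ko cells with IL-7 alone at 10 ng/ml, so genotype and medium cannot be told apart in a comparison with RAG2ko. No treatment was given, and the labels state neither the sex or age of the mice nor whether samples of a line came from different cultures. The p-values therefore rest on a spread that may be technical.

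Hox genes encode homeodomain transcription factors that lie in clusters and give cells their position along the body axis. In blood formation the genes around Hoxa9 are active in stem and early progenitor cells and are shut down as cells mature. Hox proteins bind DNA together with the TALE homeodomain proteins, among them the PBX and MEIS families. Hoxa9 and Meis1 together are also known as drivers of acute leukaemia in mice.

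RefSeq promoter windows, 250 bases before to 50 after a gene's start, were at hand for 7 of the 8 genes, none of them for Pbx3. Those of the 4 Hoxa genes that moved together are shown with that of Meis1, whose probe sets were called in no comparison. Sequences run 5′ to 3′ on GRCm38.p6, with CpG dinucleotides in capitals.
Hoxa5 (chr6:52204538-52204837, minus strand): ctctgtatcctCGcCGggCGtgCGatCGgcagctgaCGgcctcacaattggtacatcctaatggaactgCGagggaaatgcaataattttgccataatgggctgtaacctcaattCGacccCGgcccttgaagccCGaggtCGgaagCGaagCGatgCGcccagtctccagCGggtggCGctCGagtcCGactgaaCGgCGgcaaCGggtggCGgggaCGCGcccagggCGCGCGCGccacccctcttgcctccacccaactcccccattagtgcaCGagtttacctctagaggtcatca
Hoxa7 (chr6:52218524-52218823, minus strand): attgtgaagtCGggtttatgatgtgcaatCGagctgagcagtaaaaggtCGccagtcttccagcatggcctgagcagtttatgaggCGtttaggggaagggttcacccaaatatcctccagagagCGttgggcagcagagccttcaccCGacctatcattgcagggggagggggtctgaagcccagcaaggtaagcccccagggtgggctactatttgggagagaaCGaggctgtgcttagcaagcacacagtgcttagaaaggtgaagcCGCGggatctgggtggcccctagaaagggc
Hoxa9 (chr6:52227321-52227620, minus strand): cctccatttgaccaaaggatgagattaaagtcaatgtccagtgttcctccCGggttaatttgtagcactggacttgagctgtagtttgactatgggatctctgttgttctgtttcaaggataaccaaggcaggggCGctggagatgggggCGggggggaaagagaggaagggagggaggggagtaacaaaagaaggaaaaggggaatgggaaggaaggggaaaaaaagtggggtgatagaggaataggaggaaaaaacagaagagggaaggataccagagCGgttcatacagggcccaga
Hoxa10 first start (chr6:52234890-52235189, minus strand): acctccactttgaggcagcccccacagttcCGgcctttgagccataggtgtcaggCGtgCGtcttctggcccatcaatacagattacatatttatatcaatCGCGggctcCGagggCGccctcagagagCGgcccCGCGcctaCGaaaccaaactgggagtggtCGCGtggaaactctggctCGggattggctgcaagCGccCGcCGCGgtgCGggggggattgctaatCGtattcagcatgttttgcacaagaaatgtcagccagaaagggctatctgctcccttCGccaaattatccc
Hoxa10 second start (chr6:52240805-52241104, minus strand): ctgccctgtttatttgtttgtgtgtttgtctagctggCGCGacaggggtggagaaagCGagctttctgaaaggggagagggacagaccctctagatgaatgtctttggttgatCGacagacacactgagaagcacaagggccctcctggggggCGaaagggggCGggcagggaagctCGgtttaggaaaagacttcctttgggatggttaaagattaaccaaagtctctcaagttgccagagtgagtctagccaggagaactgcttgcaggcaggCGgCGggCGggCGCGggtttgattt
Meis1 (chr11:19018920-19019219, minus strand): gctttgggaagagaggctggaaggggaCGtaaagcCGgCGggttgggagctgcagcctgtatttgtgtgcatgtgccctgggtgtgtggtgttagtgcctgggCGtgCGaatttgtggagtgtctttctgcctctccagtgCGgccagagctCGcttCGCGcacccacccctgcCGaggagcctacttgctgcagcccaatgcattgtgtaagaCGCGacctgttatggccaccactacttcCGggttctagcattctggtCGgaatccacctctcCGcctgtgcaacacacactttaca
The Hoxa5 window held 29 CpG dinucleotides and the Hoxa9 window 4, against a median of 7 over 32851 promoter windows of the same length. Hoxa7 held 9, the Hoxa10 starts 21 and 12, and Meis1 15, so the genes that moved together did not share one CpG content. The EBF motif TCCCNNGGG, searched on both strands, was in none of the 8 member windows and in 6.56% of all windows. The HOX-PBX motif TGATTNAT, in 3.22% of all windows, was found in that of Hoxa2 alone, and the MEIS motif TGACAG, in 19.2% of all windows, in those of Hoxa2 and Hoxa3. These matches and misses describe the letters of the windows only.

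The arrays' median signals lay between 73.4 and 97.6, and 40.9% to 47.2% of probe sets were dimmer than 64 (log2 6). No detection calls were at hand, so whether so dim a signal exceeds background is unknown. Beside a single difference from the fit of all arrays that such signals alter, the same difference with all signals below 64 raised to 64 is given as the floored difference; it is not a lower limit. The knocked-out genes gave no clean check of the labels. The Ebf1 probe set with the highest mean had a mean log2 signal of 10.87 ± 0.21 for EBFko, 9.98 ± 0.09 for Pax5ko and 12.01 ± 0.37 for RAG2ko (SD, n = 3 each), and the position of its probes relative to the deletion is not given in the sources used here. Pax5 had signals of 10.3, 85.4 and 61.0 in EBFko, 43.7, 5.43 and 10.7 in Pax5ko and 94.6, 134 and 152 in RAG2ko, and Rag2 had 600.5, 473 and 1186 in EBFko, 226, 152 and 205 in Pax5ko and 58.4, 52.8 and 539 in RAG2ko. Neither passed the test in any comparison, and RAG2ko replicate 3 stood apart from its line on Rag2 itself. Of 12 B lineage markers tested, 2 were higher and 5 lower in EBFko than in Pax5ko, 1 higher and 8 lower in EBFko than in RAG2ko, and 0 higher and 6 lower in Pax5ko than in RAG2ko. Over 9343 genes, 1 probe set each, these counts were 520 and 476, 989 and 1056, and 757 and 913. Probe set 1422247_a_at of the Y-linked gene Uty read 5.82 ± 0.38 in EBFko, 8.50 ± 0.08 in Pax5ko and 3.18 ± 0.79 in RAG2ko. It passed the test in all 3 comparisons, but in EBFko minus RAG2ko the floored difference was 0.03, and there the other 6 probe sets of Uty, Eif2s3y and Kdm5d overlapped and were not called. Of those 6, 2 were called in EBFko minus Pax5ko and 3 in Pax5ko minus RAG2ko, with Pax5ko the higher line, so sex and genotype cannot be told apart in comparisons with Pax5ko.

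The 3 RAG2ko arrays were not alike. The mean log2 signal of 20 stromal cell markers, such as collagens, was 9.80, 8.35 and 10.06 in EBFko, 9.56, 8.36 and 10.19 in Pax5ko and 5.95, 6.92 and 9.29 in RAG2ko (replicates 1, 2 and 3). RAG2ko replicate 3 stood apart from the other RAG2ko arrays and near those of the other lines.

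Hoxa5, Hoxa7, Hoxa9 and Hoxa10 were high in EBFko and dimmer in both other lines. In the limma fit of all 40928 probe sets over the filter, 6 of the 12 member probe sets were higher and 0 lower in EBFko than in Pax5ko at an adjusted p under 0.05, while 2.58% of all probe sets were called higher and 2.64% lower. Against RAG2ko, 7 were higher in EBFko and 0 lower, with 6.23% of all probe sets called higher and 6.41% lower. Pax5ko and RAG2ko differed at 0 member probe sets by limma, with 3 at an unadjusted p under 0.05, where 4.94% of all were higher and 4.98% lower. All 12 member probe sets were over the filter of a log2 signal above 4 on at least 3 arrays, but those dim in 2 lines passed it through EBFko, so these counts are a description. The comparisons share arrays, so they are not independent of each other. The split over all probe sets moved with the scaling: without quantile normalization 2965 were higher and 2013 lower in EBFko than in RAG2ko, against 2550 and 2623 with it, and with centring on array medians 1933 were higher and 1332 lower in Pax5ko than in RAG2ko, against 2020 and 2040. Neither scaling turned the direction of any called difference given here.

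**Figure D1:**
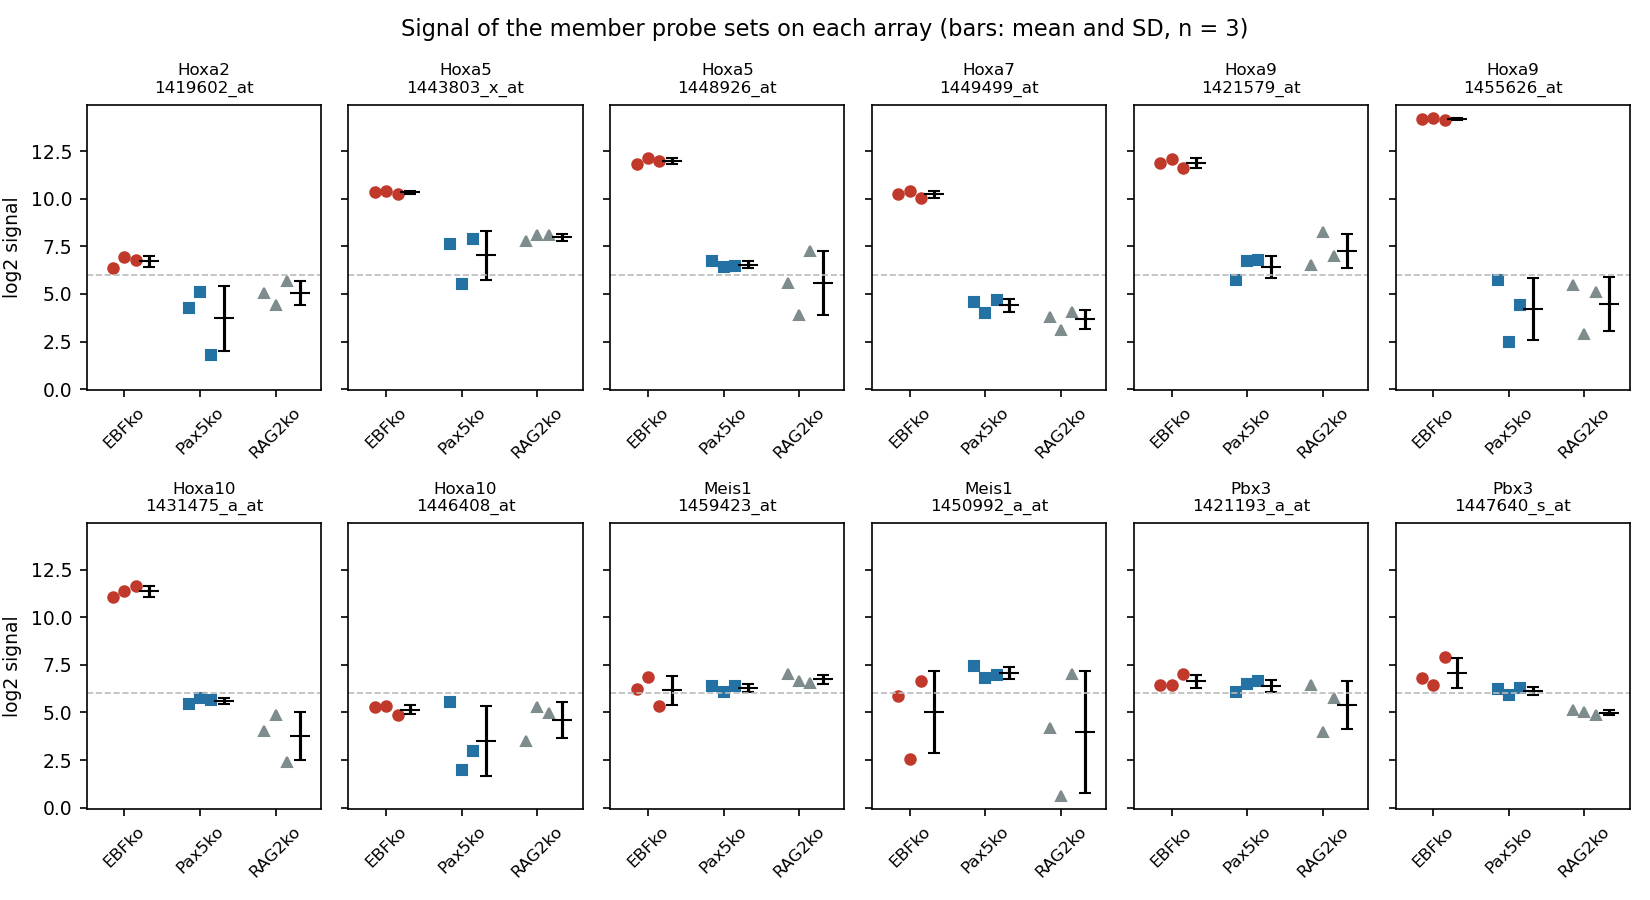
Log2 signal (y axis) of the 12 member probe sets on each array of EBFko (circles), Pax5ko (squares) and RAG2ko (triangles), with the mean and SD of 3 arrays beside them and a dashed line at 6. The EBFko arrays sit far above both other lines for Hoxa7, Hoxa9, the brighter Hoxa10 probe set and Hoxa5 1448926_at, and by less for Hoxa5 1443803_x_at. Neither Meis1 probe set has EBFko above both other lines. For Pbx3 1447640_s_at the 3 lines do not overlap, with EBFko 2.06 above RAG2ko at dim signals.

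Hoxa9, the member best known for keeping progenitors immature, had the highest differences among the members. Its probe set 1455626_at had signals of 17580, 19180 and 15440 in EBFko, against 48.4, 4.90 and 19.5 in Pax5ko and 43.4, 8.98 and 36.3 in RAG2ko. All 3 EBFko arrays were bright and all 6 others lay below 64. EBFko exceeded Pax5ko by 9.95 ± 0.93 on the log2 scale (SE, adjusted p = 0.00167, floored difference 8.17). EBFko exceeded RAG2ko by 9.68 ± 0.93 (adjusted p = 8.54e-04, floored difference 8.17). The authors' deposited table for EBFko, which gives 1 ratio per probe set against a reference that is not stated, holds a ratio of 1566 for it, rank 1 in that table, while the authors' deposited tables give 0.693 for Pax5ko and 1.005 for RAG2ko.

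The other Hoxa9 probe set, 1421579_at, read 3606, 4322 and 3065 in EBFko, 47.7, 112 and 110 in Pax5ko and 82.3, 271 and 123 in RAG2ko. EBFko was again clear of both lines, here with most of the other arrays above 64. The difference was 5.43 ± 0.48 against Pax5ko (adjusted p = 0.00142, floored difference 5.34) and 4.59 ± 0.48 against RAG2ko (adjusted p = 0.00125). Both probe sets moved the same way, by unequal sizes. Between Pax5ko and RAG2ko the intervals of the difference ran from -2.44 to 1.90 for 1455626_at and from -1.98 to 0.28 for 1421579_at, and the arrays of these lines overlapped.

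Hoxa10, the next gene in the cluster and a homeodomain factor of myeloid progenitors and of the uterus, followed the same pattern. Probe set 1431475_a_at gave 2091, 2595 and 3123 in EBFko, 38.7, 51.5 and 47.4 in Pax5ko and 15.7, 32.8 and 5.70 in RAG2ko. EBFko was higher by 5.74 ± 0.57 than Pax5ko (adjusted p = 0.00214) and by 7.60 ± 0.57 than RAG2ko (adjusted p = 2.83e-04), with a floored difference of 5.35 in both. Pax5ko lay above RAG2ko on every array, by 1.86 ± 0.57 (adjusted p = 0.0871), but all 6 signals were below 64 and the floored difference was 0. The other probe set, 1446408_at, was below 64 on all 9 arrays and not called in any comparison. Its differences were 1.66 in EBFko minus Pax5ko and 0.55 in EBFko minus RAG2ko, with a floored difference of 0 in both. At so dim a signal it cannot be set against 1431475_a_at.

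Hoxa7 and Hoxa5 lie on the other side of Hoxa9 in the cluster. Hoxa7 had signals of 1190, 1347 and 1100 in EBFko, 20.9, 14.8 and 23.4 in Pax5ko and 13.9, 10.3 and 17.7 in RAG2ko. No array of the other lines came near those of EBFko, and the differences were 5.81 ± 0.29 against Pax5ko (adjusted p = 1.42e-04) and 6.55 ± 0.29 against RAG2ko (adjusted p = 3.30e-05), with a floored difference of 4.22 in both. Hoxa5 probe set 1448926_at gave 3477, 4337 and 4008 in EBFko, 98.1, 85.2 and 86.5 in Pax5ko and 45.5, 16.9 and 144 in RAG2ko. It was higher in EBFko by 5.44 ± 0.73 than in Pax5ko (adjusted p = 0.00730) and by 6.41 ± 0.73 than in RAG2ko (adjusted p = 0.00173, floored difference 5.56).

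The second Hoxa5 probe set, 1443803_x_at, whose name marks it as able to match several transcripts, moved less. It read 1293, 1342 and 1263 in EBFko, 194, 44.1 and 243 in Pax5ko and 184, 241 and 259 in RAG2ko. EBFko was higher by 3.30 ± 0.57 than Pax5ko (adjusted p = 0.0188, floored difference 3.15) and by 2.34 ± 0.57 than RAG2ko (adjusted p = 0.0363), although its arrays did not overlap with either. Both calls were lost under several alternatives: leaving out any 1 of the EBFko arrays gave adjusted p of 0.0573 to 0.0695 against Pax5ko, and leaving out any 1 EBFko or RAG2ko array gave 0.0678 to 0.105 against RAG2ko.

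Hoxa2, a patterning gene of the hindbrain and neural crest, leaned the same way from a dim level. Its signals were 100, 135 and 112 in EBFko, 16.7, 32.3 and 3.09 in Pax5ko and 32.3, 24.6 and 53.0 in RAG2ko. EBFko was above both lines on every array, yet the differences of 2.98 ± 0.79 (adjusted p = 0.0860) and 1.66 ± 0.79 (adjusted p = 0.230) missed the threshold. With signals below 64 raised to 64 the difference was 0.71 against either line and passed, at an adjusted p of 0.0244 against Pax5ko and 0.0153 against RAG2ko. Every Pax5ko and RAG2ko signal was below 64, so the floor made them equal and took out their scatter. The pass with the floor therefore cannot decide whether Hoxa2 differed.

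Meis1, which encodes the cofactor that joins HOXA9 in leukaemia, did not show this pattern in its signals. Probe set 1459423_at had signals of 89.6, 128 and 36.4 in EBFko, 76.8, 65.8 and 83.1 in Pax5ko and 110, 97.4 and 92.7 in RAG2ko. The EBFko arrays overlapped with both other lines, and the difference was -0.14 against Pax5ko, with a 95% interval from -0.999 to 0.72, and -0.59 against RAG2ko, with an interval from -1.45 to 0.27. The floored differences were 0.07 and -0.38. Neither interval reaches the size of the Hoxa9 differences.

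Meis1 probe set 1450992_a_at was scattered within lines. It gave 69.3, 6.49 and 98.7 in EBFko, 164, 119 and 129 in Pax5ko and 18.2, 1.93 and 124 in RAG2ko. Every Pax5ko array was above every EBFko array, but the difference of -2.05 ± 1.65 missed the threshold (adjusted p = 0.601, floored difference -0.86). Its interval ran from -5.91 to 1.81, that of EBFko minus RAG2ko from -2.79 to 4.93 and that of Pax5ko minus RAG2ko from -0.74 to 6.98, so with this probe set large differences either way were not detectable. The arrays lowest for this probe set in EBFko and Pax5ko, replicate 2 in both, were also lowest for the stromal markers, and RAG2ko replicate 3 was the highest of its line for both, but the lowest RAG2ko array was replicate 2 for Meis1 and replicate 1 for the markers. Probe set 1459423_at had another order, highest on replicate 2 in EBFko and on replicate 1 in RAG2ko. The part of stromal RNA in the Meis1 signal was not tested.

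**Figure D2:**
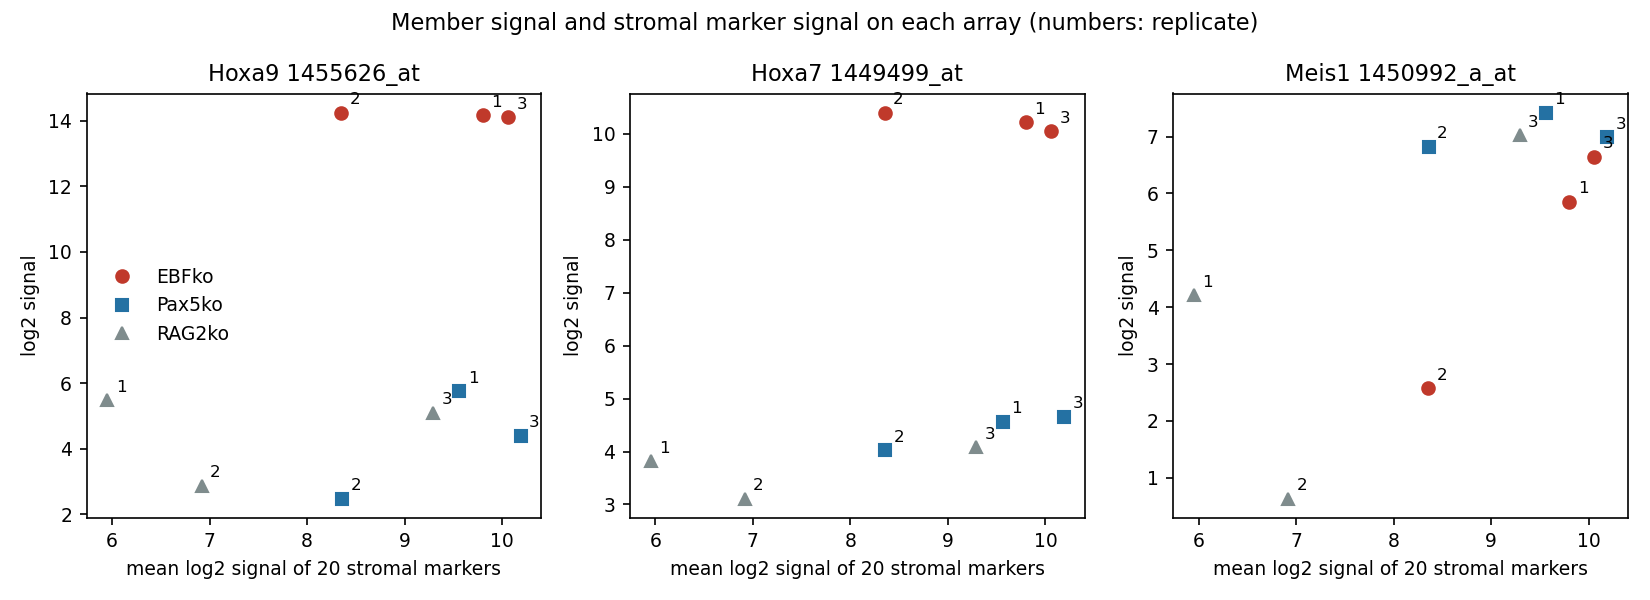
Log2 signal of 1 probe set each of Hoxa9, Hoxa7 and Meis1 (y axes) against the mean log2 signal of 20 stromal markers (x axes) on each array of EBFko (circles), Pax5ko (squares) and RAG2ko (triangles), numbered by replicate. Hoxa9 and Hoxa7 stay high on the EBFko array with the lowest stromal signal, 8.35, while Meis1 1450992_a_at, the Meis1 probe set plotted, is at the lowest level of its line there.

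Stromal marker levels can be set beside those of the Hoxa genes. The EBFko array with the lowest stromal signal, replicate 2, had the highest signal of its line for Hoxa9, Hoxa7 and Hoxa5, while Hoxa10 1431475_a_at was highest on replicate 3, the EBFko array with the highest stromal signal. Pax5ko carried as much stromal signal as EBFko, with 1 of 20 markers, the receptor gene Pdgfrb, called higher in EBFko and 0 lower. In that comparison 520 of 9343 genes, 1 probe set each, were called higher and 476 lower. Without RAG2ko replicate 3, Hoxa9 1455626_at was higher in EBFko than in RAG2ko by 9.99 (adjusted p = 0.00324) and Hoxa7 by 6.76 (adjusted p = 1.32e-04), and 6 member probe sets were higher in each of the EBFko comparisons. The part of stromal RNA in the Hoxa signals was not tested. In bulk RNA, more cells of a type and more RNA per cell cannot be told apart.

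A few markers of other blood cells also moved. The summed signal of 12 myeloid markers was 7254 to 8969 in EBFko, 3257 to 3318 in Pax5ko and 1829 to 2170 in RAG2ko, of which 1 of 12, the Fc receptor gene Fcgr3, was called higher in EBFko than in Pax5ko and 0 lower. Against RAG2ko 2 were higher in EBFko, Fcgr3 and the myeloid and B cell factor gene Spi1, and 0 lower. Fcgr3 gave 4365, 5121 and 4193 in EBFko, 69.6, 105 and 84.6 in Pax5ko and 29.7, 37.6 and 51.0 in RAG2ko. It was the largest single part of the EBFko sums, so these sums say little of the other myeloid markers. The integrin gene Itgam read 173, 158 and 441 in EBFko, 24.9, 5.08 and 11.4 in Pax5ko and 26.6, 4.09 and 45.8 in RAG2ko, without overlap but not called. Of the granule genes, Mpo read 94.6, 74.1 and 1207 in EBFko and Elane between 5.43 and 22.0. The summed signal of 11 T and NK cell markers was 4624 to 5141 in EBFko, 514 to 957 in Pax5ko and 860 to 1061 in RAG2ko, with the NK receptor gene Klrd1 called higher in EBFko than in Pax5ko and 0 lower. Against RAG2ko 3 were higher in EBFko, the T cell factor gene Gata3, the surface protein gene Thy1 and the cytokine receptor gene Il2rb, and 1 lower, the T cell receptor chain gene Cd3e, which was below 64 on every array. Thy1 read 2488, 2488 and 2351 in EBFko, 439, 236 and 705 in Pax5ko and 71.0, 42.1 and 298 in RAG2ko. Klrd1 read 1331, 1434 and 1706 in EBFko, so Thy1 and Klrd1 carried most of the EBFko sum of T and NK cell markers. Of 8 erythroid and megakaryocyte markers, 0 were called in any comparison. Among 9343 genes, 1 probe set each, 520 were called higher and 476 lower in EBFko than in Pax5ko. Against RAG2ko 989 were higher and 1056 lower in EBFko. No marker was at 0 in the deposited signals, and the part of such cells in the Hoxa signal was not tested.

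Pbx3, which encodes a PBX partner that HOXA9 binds, was the cofactor nearest to the Hoxa pattern, with a far smaller change. Probe set 1447640_s_at, listed under the name of a Pbx3 isoform, had signals of 135, 92.3 and 266 in EBFko, 68.1, 58.5 and 75.8 in Pax5ko and 34.5, 35.6 and 30.3 in RAG2ko. The 3 lines did not overlap, but only EBFko against RAG2ko passed, at 2.06 ± 0.37 (adjusted p = 0.0117), and with signals below 64 raised to 64 it missed the threshold (1.06, adjusted p = 0.115). Against Pax5ko the difference was 0.91 ± 0.37 (adjusted p = 0.248, floored difference 0.88), and Pax5ko minus RAG2ko was 1.15 ± 0.37 (adjusted p = 0.0993, floored difference 0.17). Probe set 1421193_a_at lay between 92.1 and 135 in EBFko, 59.8 and 99.7 in Pax5ko and 17.7 and 77.1 in RAG2ko, and passed in no comparison.

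**Figure D3:**
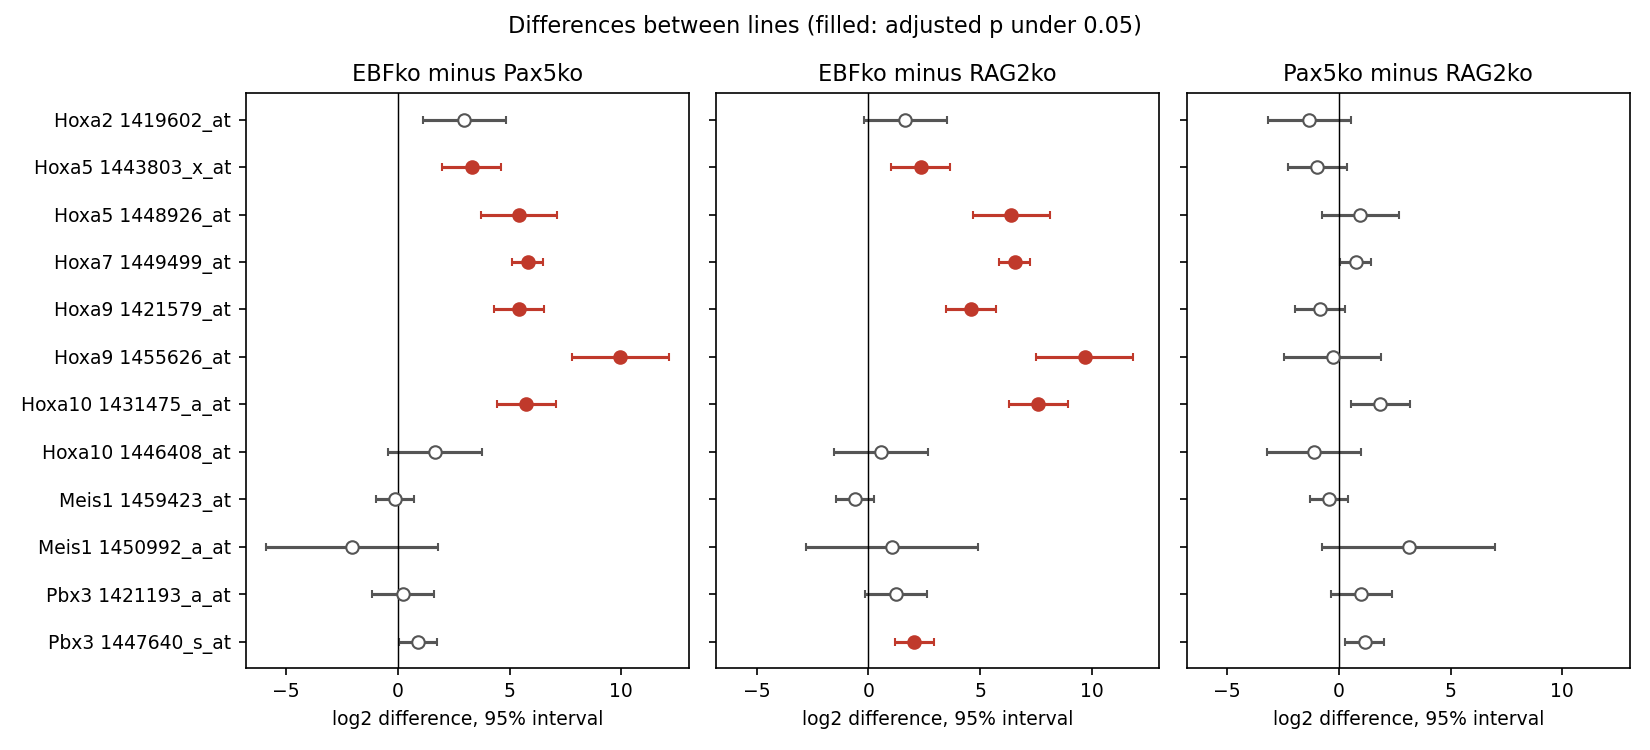
Log2 differences (x axes) with 95% intervals for the 12 member probe sets in EBFko minus Pax5ko, EBFko minus RAG2ko and Pax5ko minus RAG2ko, filled where the adjusted p is under 0.05. The filled points are 6 in the first comparison, 7 in the second and 0 in the third, and the intervals of Meis1 1450992_a_at are the widest in each.

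Over all 12 member probe sets the median difference was 3.14 in EBFko minus Pax5ko, against 0.01 over all probe sets tested. It was 2.20 in EBFko minus RAG2ko, against -0.06 over all, and 0.24 in Pax5ko minus RAG2ko, against -0.07 over all. The EBFko arrays lay above all Pax5ko arrays for 8 member probe sets and below for 1, where 14.7% and 14.3% of all probe sets did so. They lay above all RAG2ko arrays for 9 and below for 0, where 15.2% and 18.2% did, and Pax5ko lay above RAG2ko for 2 and below for 1, where 14.4% and 18.2% did.

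The rest of the Hoxa cluster was measured less well. Of 4 further Hoxa genes listed, Hoxa4, Hoxa11 and Hoxa13 were tested and not called in any comparison, and Hoxa6 had no named probe set. Hoxa4, which lies beside Hoxa5, had 4 probe sets, and the highest difference was that of 1427354_at, at 3.65 ± 1.01 in EBFko minus Pax5ko (adjusted p = 0.0961, floored difference 0.78) and 2.99 ± 1.01 in EBFko minus RAG2ko (adjusted p = 0.103, floored difference 0.78). Hoxaas2, a long noncoding RNA between Hoxa2 and Hoxa3, was singled out after its values were seen. Its probe set 1427433_s_at read 504, 701 and 457 in EBFko, 21.3, 19.7 and 38.3 in Pax5ko and 46.0, 26.5 and 63.3 in RAG2ko. EBFko was higher by 4.23 ± 0.42 than Pax5ko (adjusted p = 0.00219, floored difference 3.02) and by 3.66 ± 0.42 than RAG2ko (adjusted p = 0.00179, floored difference 3.02). Of its other 3 probe sets, 2 were called higher in EBFko than in Pax5ko and 3 higher than in RAG2ko, and since which strand each probe set reads is not given here, signal of neighbouring transcripts cannot be told apart from it.

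Of the neighbours of the cluster, Skap2 and Snx10 were called. Of 9 genes around it, 7 were tested, and 1 was called higher in EBFko than in Pax5ko and 0 lower, with 1 higher and 1 lower against RAG2ko and 0 called between Pax5ko and RAG2ko. Over all probe sets 2.58% were higher and 2.64% lower in EBFko than in Pax5ko, and 6.23% and 6.41% than in RAG2ko. With 1 probe set per gene, as in this list, 520 of 9343 genes were higher and 476 lower in EBFko than in Pax5ko. Against RAG2ko these counts were 989 and 1056. Skap2, an adaptor of integrin signalling on the Hoxa2 side, had signals of 4027, 4170 and 4011 in EBFko, 1932, 1544 and 1971 in Pax5ko and 1284, 1494 and 1938 in RAG2ko, and was higher in EBFko by 1.23 ± 0.19 (adjusted p = 0.0127) and 1.40 ± 0.19 (adjusted p = 0.00372). Snx10, a sorting nexin beyond Skap2, was lower in EBFko than in RAG2ko by 1.35 (log2 difference -1.35 ± 0.26, adjusted p = 0.0154), and its difference against Pax5ko was -1.11 ± 0.26 (adjusted p = 0.0561). Hibadh, Tax1bp1, Cbx3, Hnrnpa2b1 and Nfe2l3 were not called in any comparison, and Evx1 was below the filter.

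**Figure D4:**
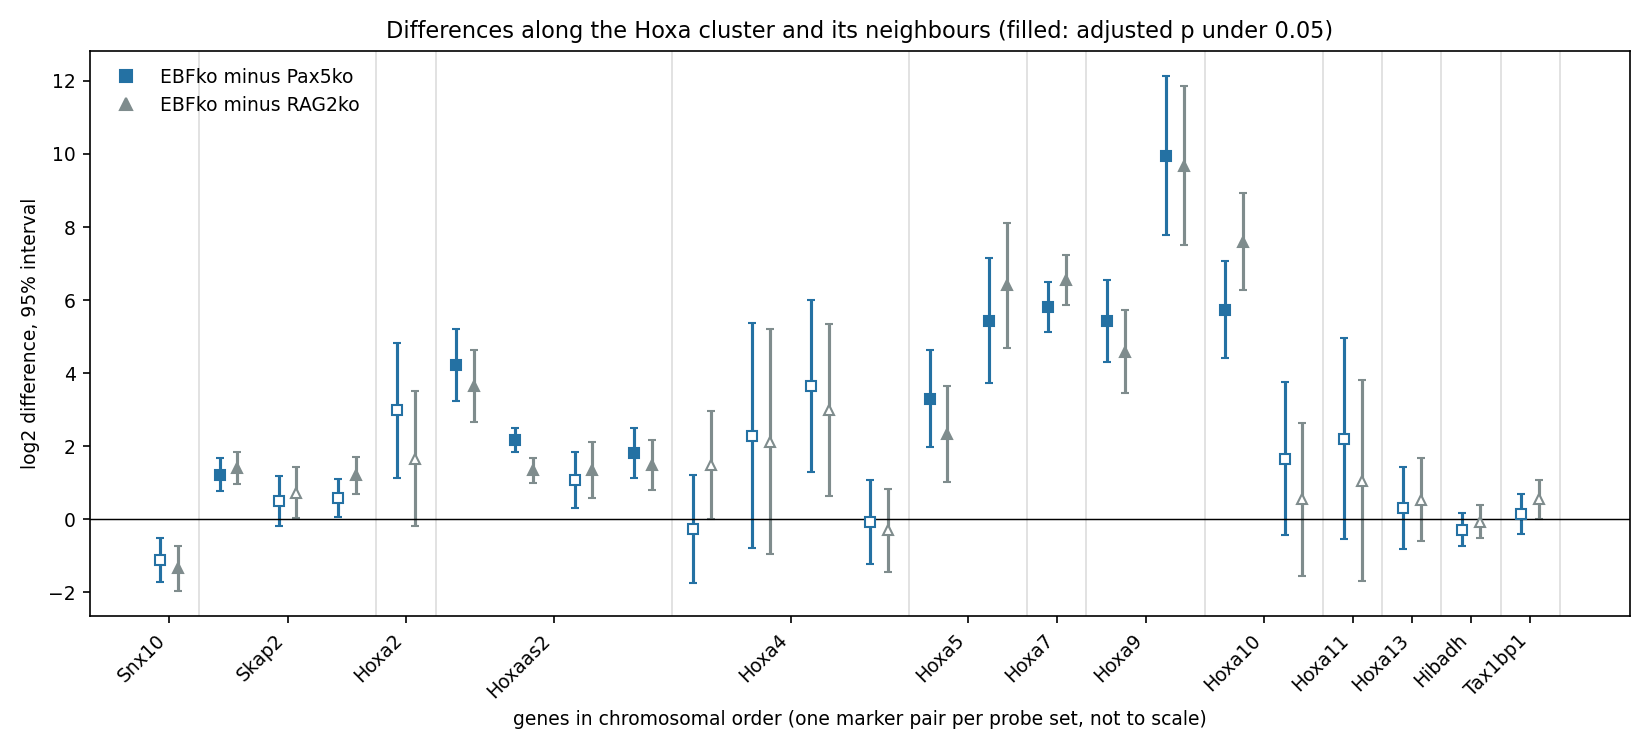
Log2 differences with 95% intervals (y axis) of EBFko minus Pax5ko (squares) and EBFko minus RAG2ko (triangles) for genes in their order along the chromosome, with 1 marker pair per probe set, filled where the adjusted p is under 0.05; the x axis is not to scale. Within the cluster the filled markers lie between Hoxa5 and Hoxa10 and at Hoxaas2, while Hoxa11, Hoxa13, Hibadh and Tax1bp1 beyond them have no filled marker. Unfilled differences in EBFko minus Pax5ko reach 3.65 at Hoxa4, 2.98 at Hoxa2 and 2.21 at Hoxa11, so filling does not mark size.

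Of 28 Hox genes of the other clusters listed, 21 were tested, and 6 of these had a mean log2 signal above 6 in any line. In EBFko minus Pax5ko 0 were higher and 1 lower, Hoxc9 at -2.02 ± 0.45 (adjusted p = 0.0490, floored difference -0.40). In EBFko minus RAG2ko 0 were called. In Pax5ko minus RAG2ko 1 was higher, Hoxb6 at 1.71 ± 0.39 (adjusted p = 0.0358, floored difference 1.57), and 0 lower. Over all probe sets 2.58% to 6.41% were called in a direction. Over 9343 genes, 1 probe set each as in this list, 520 were higher and 476 lower in EBFko minus Pax5ko. In EBFko minus RAG2ko these counts were 989 and 1056, and in Pax5ko minus RAG2ko 757 and 913. The counts of this list do not exceed the shares over genes.

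The list of TALE partners besides Meis1 and Pbx3 held 9 genes, including Pbxip1, which encodes a PBX-interacting protein. Of these, 0 were called in EBFko minus Pax5ko. In EBFko minus RAG2ko 1 was higher, Pbx2 at 0.91 ± 0.19 (adjusted p = 0.0214), and 0 lower. In Pax5ko minus RAG2ko 0 were called, although a second Pbx2 probe set, 1449261_at, was higher in Pax5ko by 1.23 (adjusted p = 0.0287). Among 9343 genes, 1 probe set each, the counts higher and lower were 520 and 476, 989 and 1056, and 757 and 913 in these comparisons. The counts of the TALE partners are too few to set apart from these shares. Meis2, Meis3, Pbx4, Pbxip1, Pknox1, Pknox2, Tgif1 and Tgif2 were not called in any comparison.

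Genes reported downstream of Hoxa9 or Meis1 moved in both directions. Of 25 tested, 4 were higher and 2 lower in EBFko than in Pax5ko, 8 higher and 4 lower in EBFko than in RAG2ko, and 7 higher and 3 lower in Pax5ko than in RAG2ko. Over 9343 genes, 1 probe set each, these counts were 520 and 476, 989 and 1056, and 757 and 913. The median difference of the list was 0.24, 0.25 and 0.14 in these comparisons. Cd34, a surface protein of blood progenitors, read 4470, 4674 and 10340 in EBFko, 24.6, 5.94 and 4.78 in Pax5ko and 6.82, 5.86 and 10.8 in RAG2ko. It followed the Hoxa genes, higher in EBFko by 9.30 ± 0.67 than in Pax5ko (adjusted p = 6.03e-04, floored difference 6.63) and by 9.86 ± 0.67 than in RAG2ko (adjusted p = 1.88e-04, floored difference 6.63). Flt3, the receptor for the Flt3 ligand in the medium of EBFko and Pax5ko, was graded over the lines at 3762, 3527 and 4226 in EBFko, 850, 840 and 960 in Pax5ko and 86.9, 55.2 and 45.7 in RAG2ko. Ccl3, a chemokine gene, was also graded, with differences of 2.57 ± 0.31 in EBFko minus Pax5ko (adjusted p = 0.00487) and 3.98 ± 0.31 in Pax5ko minus RAG2ko (adjusted p = 4.74e-04, floored difference 0.96).

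Other genes of that list had other patterns over the lines. Erg, an ETS factor of stem cells, was at 5.72, 3.75 and 5.35 in EBFko, against 1666, 1768 and 1384 in Pax5ko and 1778, 1981 and 3639 in RAG2ko. EBFko was lower by 8.37 than Pax5ko (log2 difference -8.37 ± 0.33, adjusted p = 4.43e-05, floored difference -4.63), and -8.94 ± 0.33 separated it from RAG2ko (adjusted p = 1.62e-05, floored difference -5.20). Id2, an inhibitor of E proteins, was higher in EBFko than in Pax5ko by 3.49 ± 0.30 (adjusted p = 0.00120), its difference in EBFko minus RAG2ko was 0.74 ± 0.30 (adjusted p = 0.163), and it was lower in Pax5ko than in RAG2ko (-2.75 ± 0.30, adjusted p = 0.00200). Lmo2, a bridging cofactor of progenitors, was lower in EBFko than in Pax5ko (-1.15 ± 0.22, adjusted p = 0.0287). Cdk6, a cell cycle kinase, was higher in EBFko than in RAG2ko by 3.17 ± 0.52 (adjusted p = 0.00820, floored difference 1.96) and in Pax5ko than in RAG2ko by 3.52 ± 0.52 (adjusted p = 0.00673, floored difference 2.31). The cyclin gene Ccnd3 was lower in EBFko than in RAG2ko (-1.50 ± 0.22, adjusted p = 0.00532) and in Pax5ko than in RAG2ko (-2.01 ± 0.22, adjusted p = 0.00202), and so was the repressor gene Gfi1, at -1.11 ± 0.14 (adjusted p = 0.00268) and -1.36 ± 0.14 (adjusted p = 0.00159).

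Few regulators of Hoxa transcription were called, in both directions. Among 9343 genes, 1 probe set each, 520 were higher and 476 lower in EBFko than in Pax5ko. In EBFko minus RAG2ko these counts were 989 and 1056, and in Pax5ko minus RAG2ko 757 and 913. The counts of the regulators were near these shares. Of 24 regulators tested out of 30, 1 was higher and 0 lower in EBFko than in Pax5ko, the Polycomb gene Ring1 at 0.63 ± 0.13 (adjusted p = 0.0375). In EBFko minus RAG2ko 1 was higher, the H3K27 demethylase gene Kdm6a at 1.02 ± 0.20 (adjusted p = 0.0163), and 4 were lower, among them Mllt3 of the elongation complex at -1.68 ± 0.22 (adjusted p = 0.00338), the H3K27 methyltransferase gene Ezh2 at -0.83 ± 0.17 (adjusted p = 0.0190) and the chromatin reader gene Psip1 at -0.73 ± 0.18 (adjusted p = 0.0383). In Pax5ko minus RAG2ko 1 was higher, Jarid2, a Polycomb cofactor, at 1.32 ± 0.24 (adjusted p = 0.0146), and 2 were lower, Mllt3 at -1.18 ± 0.22 (adjusted p = 0.0172) and Ring1 at -0.52 ± 0.13 (adjusted p = 0.0485). Kmt2a, which encodes the methyltransferase that keeps Hoxa genes active, had no named probe set.

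The genes whose signals tracked the members most closely over the 9 arrays were listed from 2816 named genes with an SD of at least 1. For the brightest Hoxa9 probe set by mean log2 signal, 1421579_at, they were Gucy1a1 (Pearson r = 0.996), Itsn1 (0.974) and Smox (0.973). For Hoxa10 1431475_a_at they were Tyrobp (0.984), Espn (0.984) and Pim1 (0.983). For Meis1 1459423_at they were Hoxb1 (0.927), Krtap9-3 (0.919) and Mapk7 (0.906). The 9 arrays are 3 lines of 3, so a high r with Hoxa9 or Hoxa10 says mostly that the lines ranked alike. For Meis1 1459423_at the line means were close, at 6.15, 6.29 and 6.74, beside an EBFko SD of 0.76. Its r values therefore also follow the scatter of the EBFko arrays, whose SD was 1.85 for Hoxb1, 2.55 for Krtap9-3 and 1.52 for Mapk7. Hoxb1 had a mean log2 signal below 6 in every line. None of these r values is a test.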

How the data were processed

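RNA of 3 cultured knockout lines was hybridised to 9 Affymetrix arrays, 3 per line, and groups were taken from the sample titles. The deposited series matrix holds 1 linear signal intensity per probe set and array. GCRMA is the tool named in the submitters' processing notes, but the deposited intensities all had a trimmed mean near 500, and the step that made them is not given in the sources used here; the planned design took them as log2 values, so they were log2 transformed first. The 3 deposited tables of the authors hold 1 linear ratio per probe set, without replicates and with no reference stated, and served as an alternative. The genome build of the files is not given in the sources used here.

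The 64 control probe sets were removed, log2 signals were quantile normalized, and probe sets were kept where at least 3 of 9 arrays exceeded 4 on that scale. The 40928 kept were fitted on all 9 arrays in limma (version 3.58.1, under R 4.3.3) by lmFit and eBayes. Two-sided p-values were adjusted by Benjamini-Hochberg across the 40928, and a probe set was called where the adjusted value was under 0.05. The fit was checked on simulated data. No array was a copy of another. The number of arrays limits the precision. Probe sets were named through RefSeq accessions (13127), shared descriptions (4938) or full gene names matched by hand (107), for 9928 genes, and 26865 probe sets stayed unnamed, so a gene without a named probe set may still be on the array.

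The members, the 11 gene lists and the tests were chosen with earlier results of these data known. Every member probe set is given. Lists are counted with 1 probe set per gene, that with the highest mean, and name up to 3 genes higher and 3 lower per comparison with the largest difference among those called with groups that do not overlap, plus the other listed Hoxa genes, TALE partners and neighbours. The counts over 9343 genes set beside the lists come from the fit with 1 probe set per gene, adjusted over those genes alone. Hoxaas2, Itgam, Mpo, the second Pbx2 probe set and the values of the knocked-out and Y-linked genes were named outside this rule. A few listed genes are not reported here and were taken out of the lists. Alternatives changed the scaling, filter, floor, probe set choice, limma settings, arrays fitted and replicate block, used the ratio tables, or left out 1 array at a time. Same-numbered samples of different lines had correlated deviations of -0.006 to 0.114, against -0.119 to 0.071 for samples of unlike number. Pairs of replicate 2 with 2 and of 3 with 3 were all above 0, and pairs of 2 with 3 all below. The labels state no block, so the numbers were not taken to pair samples in the main fit. A batch shared by same-numbered samples may still be present.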

Additional observations from a re-analysis of the deposited data

How the results depend on the processing

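Of the 13 called member differences, 10 stayed called under all alternatives with a test. Those of Hoxa5 1443803_x_at were lost under 5 alternatives against Pax5ko and 7 against RAG2ko, and that of Pbx3 1447640_s_at against RAG2ko under 1, the floor at 64. No called member difference changed direction. With 1 probe set per gene, 4 members were higher in EBFko than in RAG2ko, by the alternative's construction. In Pax5ko minus RAG2ko 1 member probe set was higher with eBayes trend and robust settings, 1 with only the 6 arrays compared, and 0 to 1 with 1 array left out; without EBFko replicate 3 it was Pbx3 1447640_s_at and without RAG2ko replicate 2 Hoxa10 1431475_a_at. Leaving out 1 array gave 5 to 6 members higher in EBFko minus Pax5ko and 6 to 8 in EBFko minus RAG2ko.

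The replicate number as a block, a shared number only, left 5 and 6 members higher in the EBFko comparisons and 0 in Pax5ko minus RAG2ko, and 1222 probe sets called in EBFko minus Pax5ko, against 2135 without the block. That count was 3264 with a filter at 6, 3650 with the floor at 64, 996 with 1 probe set per gene (fewer tested), 3817 with trend and robust settings, 3397 with array weights and 987 to 2477 with 1 array left out. In EBFko minus RAG2ko 5173 were called, against 2045 with 1 probe set per gene, 3171 with only the 6 arrays compared and 3097 to 5920 with 1 array left out. In Pax5ko minus RAG2ko 4060 were called, against 1670, 6272 with trend and robust settings, 2641 with only the 6 arrays and 2424 to 4451. Apart from the alternatives that tested fewer probe sets or arrays, the cause was not tested.

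Differences that were not called changed sign as follows, and the cause was not tested. Hoxa10 1446408_at was -0.029 in EBFko minus Pax5ko and -0.299 in EBFko minus RAG2ko from the authors' deposited tables. Meis1 1459423_at in EBFko minus Pax5ko was 0.074 with the floor and -0.499 to 0.256 with 1 array left out, above 0 without EBFko replicate 3. Meis1 1450992_a_at in EBFko minus RAG2ko was -0.125 with the floor and -0.590 to 2.60 with 1 array left out, below 0 without RAG2ko replicate 2. Hoxa9 1455626_at in Pax5ko minus RAG2ko was 0.310 with array weights and -1.08 to 0.595 with 1 array left out, above 0 without Pax5ko replicate 2 (0.595), RAG2ko replicate 1 (0.225) or RAG2ko replicate 3 (0.037). Pbx3 1421193_a_at in Pax5ko minus RAG2ko was -0.201 from the authors' deposited tables. The floor gives no value where all arrays compared lay below 64. Signal over background limits the size of every difference with a line below 64.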
